A study of Mus musculus with 6 samples.

Results

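The natriuretic peptide system was examined in heart and brain of mice with ischemic heart failure through 8 genes that were chosen by name. They are the hormone genes Nppa, Nppb and Nppc, the receptor genes Npr1, Npr2 and Npr3, and the genes of the processing enzymes Corin and Furin. All 8 were present among the 35485 features of the deposited tables. RNA sequencing was performed in left ventricular myocardium, hippocampus and prefrontal cortex of male C57BL/6 mice (the substrain C57BL/6N in the study's methods) that were 6 to 9 weeks old when purchased. Mice with chronic heart failure after myocardial infarction by coronary ligation (CHF) were compared with sham-operated mice, both 8 weeks after surgery. In each tissue, RNA of 3 CHF mice was pooled into 1 library and RNA of 6 sham mice into another, which gave 6 libraries. The sources used here do not say whether the sequenced ventricle included scar tissue.

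Natriuretic peptides are hormones that are made as inactive precursors. Atrial natriuretic peptide (ANP, from Nppa) and B-type natriuretic peptide (BNP, from Nppb) are released by stretched heart muscle cells, act on kidney and vessels to lower volume and pressure, and are used as blood markers of heart failure. C-type natriuretic peptide (CNP, from Nppc) acts locally, in bone growth, in vessels and in the brain. ANP and BNP bind the guanylyl cyclase receptor encoded by Npr1, CNP binds the related receptor encoded by Npr2, both receptors make the messenger cGMP, and the receptor encoded by Npr3 binds all of these peptides and removes them. Corin cuts the ANP precursor at the surface of the heart muscle cell, and furin cuts the precursors of CNP and BNP inside the cell.

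With 1 pooled library per group no test between CHF and sham mice was possible. Values are whole numbers of reads mapped uniquely to a gene, reads-per-million values (RPM) over all unique reads of the library, and the deposited RPKM, which divides by the listed length of a gene and the total gene reads. Differences are log2 ratios of RPKM, CHF over sham, each followed by its 95% interval. All intervals cover counting error only, and the spread between mice is unknown. A gene counted as measured in a tissue when the CHF and the sham library each held 100 or more of its unique reads, and was called higher or lower at a log2 ratio of at least 0.9 or at most -0.9. Depth was 15.7 to 25.9 M unique gene reads per library. The 10 most abundant features held 17.6% of reads in the ventricle of CHF mice and 28.0% in that of sham mice, against 4.12 to 4.95% in the brain libraries. Neuron markers summed to 5640 to 6819 RPM in the brain libraries and to 25.2 and 33.8 RPM in the ventricle, and 13 cardiac muscle markers to 53294 and 74613 RPM in the ventricle and 152 to 178 RPM in the brain.

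In the left ventricle of CHF mice, the RNA of both cardiac hormones was higher, while that of the ANP-cutting enzyme was lower without reaching the threshold. Nppa was higher 15.1-fold and Nppb 3.52-fold. Corin was 1.76-fold lower, and the 3 receptor genes and Furin lay between. Of the 8 genes 7 were measured in this tissue. Of these, 2 were higher and 0 were lower, where 10.5% of the 9771 measured genes were higher, 1.54% were lower and 12% were either. In pooled tissue fewer cells of a type and less RNA per cell cannot be told apart.

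**Figure D1:**
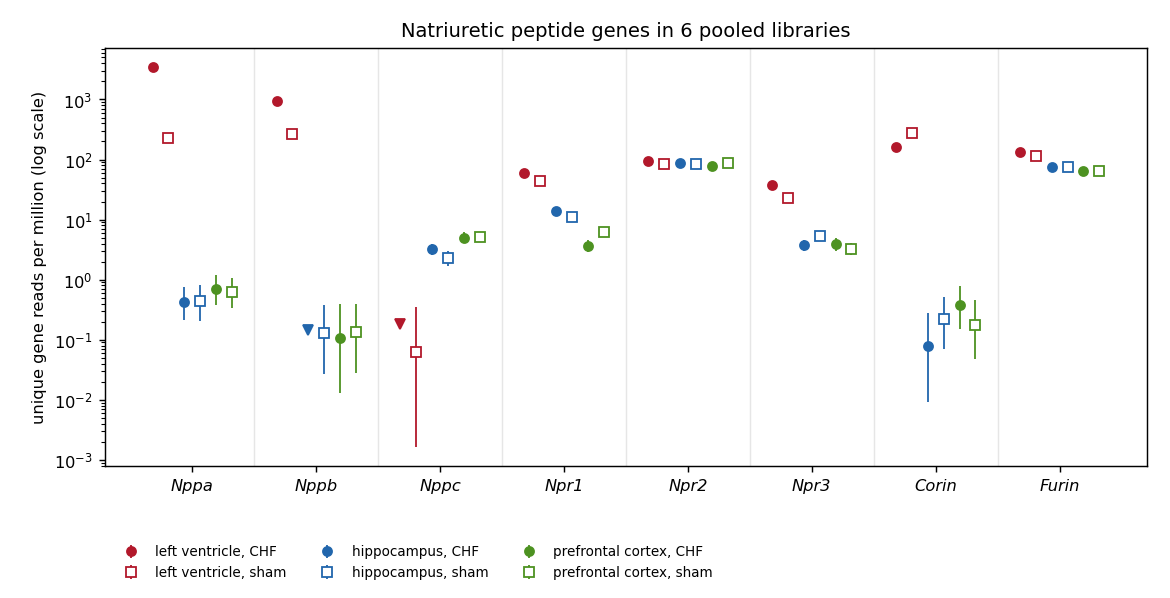
Unique gene reads in RPM (log scale) of the 8 genes in the 6 pooled libraries, with filled circles for CHF and open squares for sham, and bars for exact 95% Poisson intervals of the reads. A triangle marks a library with 0 reads, drawn at the upper limit of that interval. Nppa and Nppb reached 226 to 3462 RPM in the ventricle and stayed at or below 0.701 RPM in the brain, whereas Npr2 lay between 79.4 and 94.7 RPM in every library.

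Nppa and Nppb lie next to each other on chromosome 4. In the coordinates of the deposited tables (GRCm38.p1), Nppa occupies chr4:148000746-148002067 and Nppb chr4:147985789-147987205, with 13540 bases between them, and GENCODE places both on the forward strand. Because the 2 hormone genes were higher together, their promoter sequences are shown from RefSeq (GRCm38.p6). The 250 bases before the RefSeq start of Nppa are chr4:148000472-148000721, forward strand, 5′ to 3′, with letters that match a searched motif in capitals:
Nppa promoter: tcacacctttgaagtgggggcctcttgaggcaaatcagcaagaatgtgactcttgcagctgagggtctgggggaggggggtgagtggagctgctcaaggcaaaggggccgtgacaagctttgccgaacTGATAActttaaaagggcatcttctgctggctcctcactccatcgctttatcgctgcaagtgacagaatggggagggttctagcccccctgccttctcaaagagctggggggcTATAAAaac
The stretch of the Nppb window that holds 3 neighbouring matches is chr4:147985795-147985821, forward strand:
Nppb stretch: GGAATGcagcTGATAAatcagAGATAA
The motifs searched were the TATA box, spelled TATAAA, on the gene strand only. On both strands, a GATA factor motif was searched as TGATAA. Its variant with another first letter was searched as AGATAA. The M-CAT element, which TEAD factors bind, was searched as CATTCC. None of these overlapped another in the windows shown. Nppa had TGATAA at position -122 and TATAAA at -9, counted from the RefSeq start, which lies 24 bases before the start in the deposited tables. Nppb had the M-CAT letters on the reverse strand at -105, so that the printed forward strand shows their reverse complement, GGAATG. It also had matches to both GATA motifs, at -95 and -84, and to the TATA box at -31. The RefSeq start of Nppb lies 111 bases inside the gene as the deposited tables place it. Windows of the same length held TATAAA in 7.59%, TGATAA in 7.94%, AGATAA in 9.99% and CATTCC in 12.6% of 32851 promoters. Among the other 6 genes, only Nppc (at -29) and Furin (at -23, in 1 of its windows) had a match, in each case to the TATA box. All 8 genes matched a RefSeq promoter by symbol, and a match is a description of letters, not of a bound site.

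Nppa had 68808 unique gene reads in the ventricle of CHF mice and 3547 in that of sham mice, or 3462 and 226 RPM. Its RPKM was 2352 against 156, a log2 ratio of 3.92 (3.87 to 3.97). That placed Nppa 10th from the top of the 9771 measured genes. By unique reads Nppa moved from position 484 in the sham library to position 17 in the CHF library.

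Nppb had 18959 reads in the ventricle of CHF mice and 4195 in that of sham mice, or 954 and 267 RPM. The RPKM was 604 against 172, a log2 ratio of 1.82 (1.77 to 1.86), the 241st highest of the measured genes. The 2 hormone genes together took 0.442% of all unique reads in the CHF library and 0.0493% in the sham library.

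The balance between the 2 hormone genes also differed. The ventricle of sham mice had 0.846 reads of Nppa for each read of Nppb (0.808 to 0.884), and that of CHF mice had 3.63 (3.57 to 3.69). Nppb thus gave the larger number of reads in the sham pool and Nppa in the CHF pool. This ratio was 4.29-fold higher in the CHF library, a log2 change of 2.10 (2.03 to 2.17), and it does not depend on how the libraries are scaled.

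Nppc, the CNP gene on chr1:86666293-86670573, was at the limit of detection in the ventricle. There were 0 reads in CHF mice and 1 in sham mice, so no ratio was formed, and the 0 reads allow a level of up to 0.151 RPM at the floor of 3 reads, or 0.186 RPM at the upper limit of the exact 95% Poisson interval.

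The ventricle is the tissue in which fetal heart genes return in failure, and other cell types enter or expand in it after infarction, so marker genes were counted beside the hormones. The 13 cardiac muscle markers had a median log2 ratio of -0.45, 12 of 13 lay below 0, and Myh6, the main adult myosin heavy chain of the mouse, was lower (-0.99). Per 1000 reads of these muscle markers, Nppa had 65.0 reads in CHF mice and 3.03 in sham mice, and Nppb had 17.9 and 3.58. The hormone differences were therefore also present relative to muscle RNA. Fibroblast markers were higher in 8 of 8 measured genes with a median of 3.24, led by the matrix gene Postn (4.44), and summed to 7486 RPM in CHF and 967 RPM in sham mice. Macrophage markers were higher in 9 of 10 measured genes, with a median of 1.85 and sums of 1158 and 334 RPM. Of all measured genes 10.5% were higher and 1.54% were lower.

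Atrial muscle normally makes most ANP, and atrial markers were counted to see whether atrial tissue accompanied the change. The 11 markers ranged from 0 to 5556 reads in CHF mice and from 0 to 701 in sham mice. Myl7, the atrial regulatory light chain, had 1 read in CHF and 3 in sham mice, and Sln and Bmp10 had 0 reads in both. Myl4, the atrial essential light chain, had 131 reads in CHF and 69 in sham mice, a log2 ratio of 0.39 (0.13 to 1.01), and Sbk2 had 27 and 65 reads. Of the 11 markers 4 were measured and 1 of them was lower, the channel gene Kcnj3 (log2 ratio -1.80), with Nr2f2 at 0.75, Gja5 at 0.59 and Stard10 at 0.05. The summed level of the list was 373 RPM in CHF and 108 RPM in sham mice, of which Dkk3 alone gave 5556 and 58 reads. Dkk3, Myl4 and Sbk2 were not measured by the read minimum and are named because of their values. The part of atrial tissue in the hormone values was not tested. Ventricular muscle markers had a median of -0.35 in 5 measured genes, with Irx4, a ventricular transcription factor, at -0.60 and Myl2, the ventricular light chain, at -0.39.

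**Figure D2:**
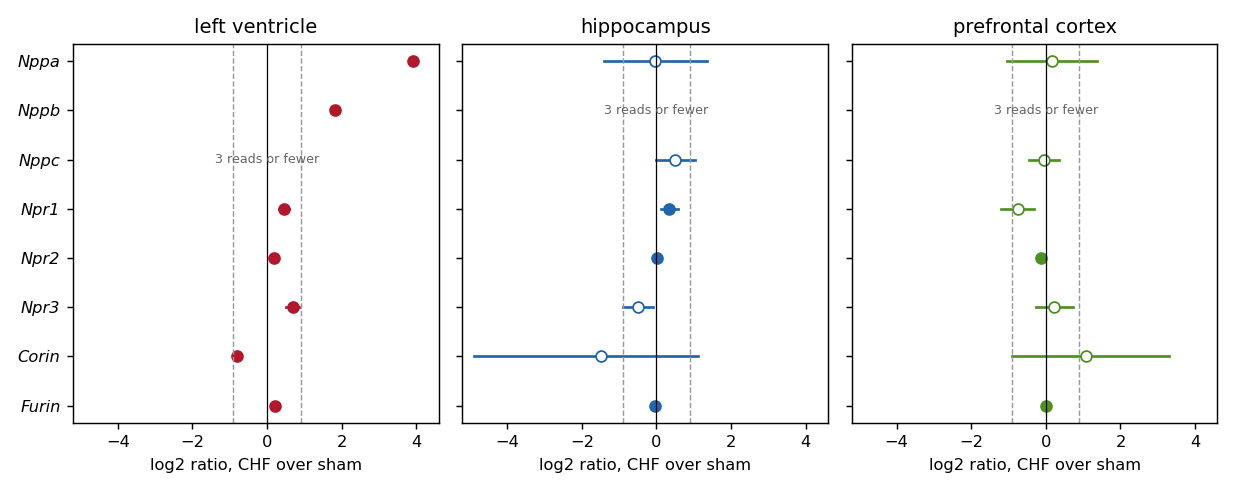
Log2 ratio of RPKM, CHF over sham, for the 8 genes in each tissue, with 95% counting intervals as bars and dashed lines at -0.9 and 0.9. Filled circles are measured genes and open circles those below the read minimum. Nppa (3.92) and Nppb (1.82) in the ventricle are the only filled points beyond the dashed lines.

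The receptor genes differed less than the hormones in the ventricle, and none passed the threshold. Npr1, the ANP and BNP receptor gene on chr3:90450592-90465866, had 1204 reads in CHF and 682 in sham mice, or 60.6 and 43.5 RPM. Its log2 ratio was 0.46 (0.32 to 0.60), with RPKM of 3.57 against 2.59. Npr3, the clearance receptor gene on chr15:11839896-11905674, had 738 reads against 358, or 37.1 and 22.8 RPM. The log2 ratio of Npr3 was 0.68 (0.50 to 0.87), the highest of the 3 receptor genes. Both genes lay above sham beyond counting error, and above the median of all measured genes, which was 0.22.

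Npr2, the CNP receptor gene on chr4:43631935-43651244, had 1883 reads in CHF and 1298 in sham mice. This is 94.7 against 82.7 RPM and a log2 ratio of 0.17 (0.07 to 0.28), slightly below the median of all genes. With TMM or DESeq2 scaling Npr2 was at -0.10 or -0.11, so no direction is given for it.

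Within a library, receptors can be compared without any scaling. There were 0.639 reads of Npr1 per read of Npr2 in CHF mice and 0.525 in sham mice, a log2 change of 0.28 (0.11 to 0.45). The clearance receptor relative to the signalling receptor, Npr3 over Npr1, was 0.613 in CHF and 0.525 in sham mice. That log2 change was 0.22, and its interval included 0 (-0.003 to 0.45).

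Corin, which lies on chr5:72300025-72504540 and encodes the membrane protease that activates ANP, had 3200 reads in CHF and 4391 in sham mice. This is 161 against 280 RPM, and RPKM of 0.710 against 1.25. The log2 ratio was -0.82 (-0.88 to -0.75), short of the threshold, and the 190th lowest of 9771 genes. Relative to the median of all genes it was -1.04. With TMM scaling, which assumes that most genes are unchanged, Corin was at -1.09 and past the threshold, and with DESeq2 size factors at -1.11. Per 1000 reads of the muscle markers Corin had 3.02 reads in CHF and 3.75 in sham mice. Myh6, itself lower, gave 264369 of the 1059149 marker reads in CHF and 423662 of 1170975 in sham mice. The part of the muscle markers in the difference of Corin was not tested.

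Furin, on chr7:80389194-80405431, encodes a convertase found in most cells. It had 2682 reads in CHF and 1818 in sham mice, or 135 and 116 RPM, with a log2 ratio of 0.20 (0.11 to 0.29). This was close to the median of all genes, and TMM scaling brought it to -0.07 and DESeq2 scaling to -0.09, so no direction is given for Furin either. The ratio of Corin to Furin reads was 1.19 in CHF and 2.42 in sham mice, a log2 change of -1.02 (-1.13 to -0.91).

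Corin thus differed in the opposite direction to both hormone genes, without passing the threshold. The CHF library had 21.5 reads of Nppa for each read of Corin, against 0.808 in the sham library, a 26.6-fold difference. For Nppb the ratio to Corin was 5.92 against 0.955, a 6.20-fold difference. RNA levels say nothing of the amount of active enzyme or of circulating peptide.

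**Figure D3:**
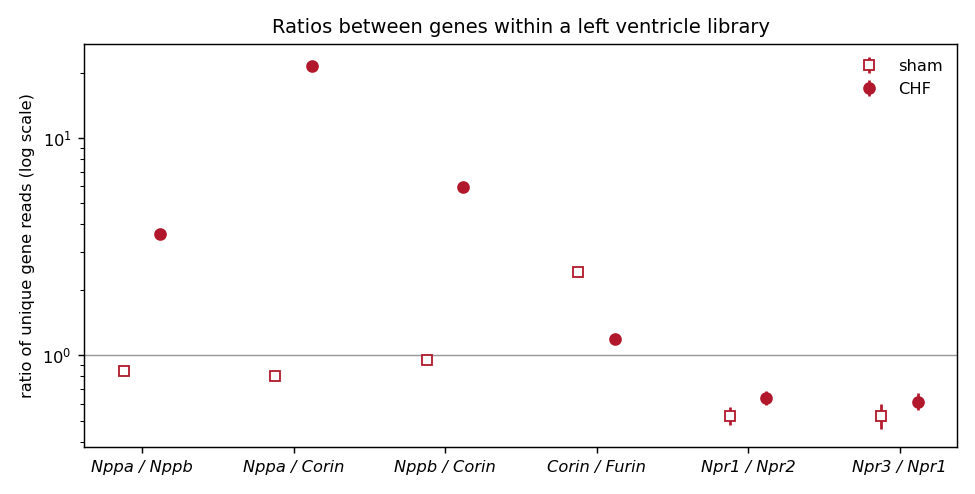
Ratio of unique gene reads between pairs of the genes within each ventricle library (log scale), with open squares for sham, filled circles for CHF and bars for 95% intervals. Nppa over Corin went from 0.808 to 21.5 reads per read, and Nppa over Nppb from 0.846 to 3.63, while Npr3 over Npr1 stayed at 0.525 and 0.613.

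The deposited RPKM uses the genomic span as length in 99.7% of the features with a length, so long genes with long introns appear low. Corin is listed with 204516 bases, although its annotated exons sum to 5400 bases. In RPM per kilobase of GENCODE exons, the ventricle of CHF mice had 4003 for Nppa, 1221 for Nppb and 29.8 for Corin. In sham mice these levels were 261, 342 and 51.8. On that scale Corin came next after the hormone genes in both ventricle libraries, ahead of Npr2 (20.3 and 17.7), Furin (14.7 and 12.6), Npr1 (12.7 and 9.09) and Npr3 (3.96 and 2.43). By deposited RPKM Corin also came behind Furin, Npr2 and Npr1. Reads in introns are counted in these numbers, and the share they hold was not tested.

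The 8 genes differed in how they were distributed over the tissues. Nppa, Nppb and Corin were found almost only in the ventricle and Nppc in the brain. Npr2 and Furin were present in all 6 libraries at 65.3 to 135 RPM, and Npr1 and Npr3 were highest in the ventricle. Differences between tissues are given in RPM, each with 1 library per tissue and group.

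In sham mice Nppa was 519-fold higher in the ventricle than in the hippocampus (282 to 1083) and 362-fold higher than in the prefrontal cortex (216 to 663). The hippocampus had 11 reads of Nppa in CHF and 10 in sham mice, and the prefrontal cortex 13 and 14. Nppb had 0 and 3 reads in hippocampus and 2 and 3 in the prefrontal cortex, at or below the floor of 3 reads. Corin had 2 and 5 reads in hippocampus and 7 and 4 in the prefrontal cortex. At this depth only a large change of Nppa or Corin in the brain could have been seen, and no ratio was formed for Nppb. For Nppa the log2 ratio was -0.03 (-1.41 to 1.36) in hippocampus and 0.17 (-1.04 to 1.36) in prefrontal cortex.

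Nppc showed the opposite distribution. It had 83 reads in the hippocampus of CHF mice and 52 in that of sham mice, and 93 and 116 in the prefrontal cortex. In sham mice its level was 5.17 RPM in the prefrontal cortex and 2.26 RPM in the hippocampus, against 0.0637 RPM in the ventricle. The level in CHF mice was at least 21.3-fold higher in hippocampus and at least 33.2-fold higher in the prefrontal cortex than in the ventricle, taking 3 reads in the ventricle as the floor and leaving out the counting error of the brain reads. The lower limits of the 95% counting intervals of these folds were 16.9 and 26.5. CHF and sham libraries differed by a log2 ratio of 0.50 (-0.01 to 1.03) in hippocampus and -0.05 (-0.46 to 0.36) in the prefrontal cortex, so both intervals included 0, and the gene stayed below the read minimum in both tissues.

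The CNP receptor gene Npr2 was the most even gene of the set. It had 2249 and 1971 reads in hippocampus and 1472 and 1962 in the prefrontal cortex, in CHF and sham mice respectively. In sham mice its level in the ventricle was 0.964 times that in the hippocampus (0.898 to 1.03) and 0.946 times that in the prefrontal cortex (0.881 to 1.02). The CHF and sham libraries differed by 0.02 (-0.07 to 0.11) in hippocampus and -0.14 (-0.24 to -0.04) in the prefrontal cortex. The 4 brain libraries held between 79.4 and 87.4 RPM.

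Npr1 also differed between the brain regions. It had 357 reads in the hippocampus of CHF mice and 249 in that of sham mice, 13.8 and 10.8 RPM. In the prefrontal cortex there were 68 reads in CHF and 138 in sham mice, 3.67 and 6.15 RPM. The hippocampus was thus higher than the prefrontal cortex 1.76-fold in sham (1.43 to 2.19) and 3.77-fold in CHF mice (2.90 to 4.95). The ventricle stood above both, at 4.01-fold the level of the hippocampus and 7.07-fold that of the prefrontal cortex in sham mice.

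The log2 ratio of Npr1, CHF over sham, was 0.35 (0.11 to 0.59) in hippocampus and -0.75 (-1.19 to -0.32) in the prefrontal cortex. The first made Npr1 the 356th highest of 11086 measured genes, and the second rests on 68 and 138 reads, below the read minimum in the CHF library. The 2 values lay on opposite sides of 0 beyond counting error and neither passed the threshold. Endothelial cells are among the known sites of Npr1, and the endothelial markers had median log2 ratios of 0.14 in hippocampus and -0.02 in the prefrontal cortex. Their part in the difference was not tested.

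Npr3 had few reads in the brain, with 96 in CHF and 121 in sham mice in hippocampus and 72 and 74 in the prefrontal cortex. The log2 ratio was -0.50 (-0.91 to -0.11) in hippocampus and 0.21 (-0.26 to 0.72) in the prefrontal cortex, both below the read minimum. Relative to Npr1, the clearance receptor went from 0.486 reads per read in sham to 0.269 in CHF mice in the hippocampus, a log2 change of -0.85 (-1.31 to -0.40). In the prefrontal cortex the same ratio went from 0.536 to 1.06, a log2 change of 0.98 (0.35 to 1.61). The ratio of clearance to signalling receptor thus differed in opposite directions in the 2 brain regions, on few reads and without replicates.

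Furin had 1933 and 1758 reads in hippocampus and 1211 and 1466 in the prefrontal cortex. The log2 ratios were -0.03 (-0.13 to 0.06) and -0.003 (-0.11 to 0.11). In sham mice the ventricle held 1.51-fold the level of the hippocampus and 1.77-fold that of the prefrontal cortex.

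Of the 8 genes 3 were measured in the hippocampus (Npr1, Npr2 and Furin) and 2 in the prefrontal cortex (Npr2 and Furin), and 0 passed the threshold in either region. Few genes did so at all. In the hippocampus 0.0541% of 11086 measured genes were higher and 0.135% lower, 0.189% in all. In the prefrontal cortex 0.0093% of 10747 were higher and 0.0465% lower, 0.0558% in all. A count of 0 among 3 or 2 genes is no different from that background.

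Genes that act with the peptides were counted by role in the ventricle. Of all 9771 measured genes there, 10.5% were higher and 1.54% were lower, and most lists held few measured genes. Other enzymes that make cGMP were counted first. Of 3 measured guanylyl cyclase genes 2 were higher, Gucy1a3 (3191 reads in CHF, 754 in sham mice, log2 ratio 1.72) and Gucy1b3 (1365 and 410, 1.38), which encode the 2 chains of the nitric oxide receptor. Gucy1a2, another chain of that receptor, was at 0.23. Of the effectors of cGMP 6 were measured and 0 passed the threshold, with a median of 0.36. Among these were Vasp, a kinase substrate at the cytoskeleton, at 0.64, the G protein regulator Rgs2 at -0.60, Itpr1, a calcium release channel, at 0.49, and the cGMP-dependent kinase gene Prkg1 at 0.37. The effector gene Kcnma1 had 193 reads in CHF mice and 8 in sham mice, too few to be measured, and is named because of its values. Pln, the phospholamban gene that is also a kinase substrate, had 0 unique reads in both ventricle libraries and was not measured. Its RPKM, which includes reads shared with other places, was 5.30 in CHF and 12.9 in sham mice.

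The list of phosphodiesterase genes for cGMP, which includes the subunit gene Pde6d, had 4 measured genes, of which 1 was lower. Pde3a, which is expressed in heart muscle, had 792 reads in CHF and 1300 in sham mice, a log2 ratio of -1.08. Pde1c was at -0.47, Pde6d at 0.47 and Pde2a at -0.25. Several others had too few reads in sham mice to be measured, among them Pde1a with 592 and 77 reads and Pde3b with 355 and 64. They are named because of their values.

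Peptidases known to degrade natriuretic peptides had 3 measured genes and 0 past the threshold. Mme, the neprilysin gene and target of a heart failure drug, had 152 and 147 reads and a log2 ratio of -0.34 (-0.65 to 0.03). Ece1, an endothelin-converting enzyme, was at 0.46. Ide, the insulin-degrading enzyme, was at 0.55 by RPKM, while its unique reads (1487 and 1303) gave an interval of -0.28 to -0.06. The RPKM of Ide includes reads shared with other places, so its direction is uncertain.

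Among the other proprotein convertases, relatives of furin, 2 of 3 measured genes were higher. These are too few to set against the 10.5% of all measured genes. Pcsk6, which is known to activate corin, had 3752 and 1546 reads and a log2 ratio of 0.92 (0.83 to 1.01). Mbtps1, the site-1 protease, was at 0.93 and Pcsk7 at 0.20. Of the granule genes 2 were measured, and Pam, the amidating enzyme that is a main membrane protein of atrial granules, was higher with 24108 and 9463 reads (0.96), with Cpe, a carboxypeptidase, at 0.40. The ratios of Pcsk6, Mbtps1 and Pam were close to the threshold. With TMM scaling 0 of 3 convertases and 0 of 2 granule genes passed it. Osteocrin (Ostn), a ligand of the clearance receptor, had 2 reads and 1.

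Transcription factors known to act at the Nppa and Nppb promoters, listed together with the histone deacetylases Hdac4, Hdac5 and Hdac9, were all measured, 26 of 26. Of these 2 were higher and 0 were lower, with a median of -0.01, and 13 lay above and 13 below 0. Of all measured genes 10.5% were higher and 1.54% were lower, so 2 among 26 is near that background. Nfatc4, a target of the phosphatase calcineurin, had 784 reads in CHF and 164 in sham mice (log2 ratio 1.88), and Egr1, an immediate early gene, had 3752 and 1162 (1.33). Nr3c2, the mineralocorticoid receptor, was at -0.72 and Tbx5 at -0.70, both short of the threshold and past it with TMM scaling. The cardiac factors Gata4 (0.15), Nkx2-5 (0.02) and Srf (0.13) lay near 0, as did Tead1 (-0.09), the factor family of the M-CAT element. By RPKM, which divides by the listed length, Egr1 was the highest factor in CHF mice. By unique reads Tbx20 (6381), Tead1 (5255) and Gata4 (4523) lay above it.

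**Figure D4:**
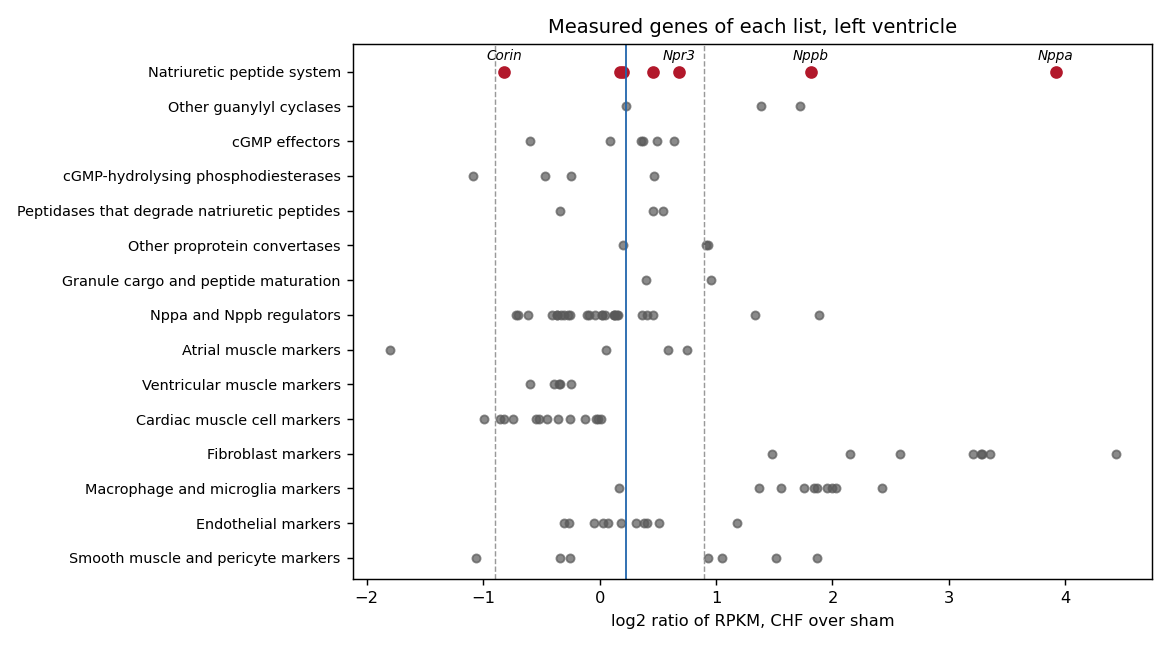
Log2 ratio of RPKM, CHF over sham, in the left ventricle for the measured genes of each list, 1 point per gene, with dashed lines at -0.9 and 0.9 and a solid blue line at the median of all measured genes (0.22). Among the points drawn only the fibroblast marker Postn (4.44) lies to the right of Nppa (3.92). Nppb (1.82) lies to the right of all guanylyl cyclases. Corin (-0.82) lies to the left of the median of the 13 cardiac muscle markers (-0.45), near Ckm (-0.82) and Ryr2 (-0.85). These markers run from -0.99 to 0.008.

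In the brain regions 0 genes of these lists passed the threshold. The 5 measured guanylyl cyclases had a median of -0.05 in hippocampus and -0.02 in the prefrontal cortex. For the 7 measured genes of the phosphodiesterase list the medians were 0.08 and -0.09. Pde2a, a brain phosphodiesterase that cGMP stimulates, was at 0.02 and -0.005. In the same order, the medians were -0.09 and 0.05 for neuron markers, -0.004 and 0.10 for astrocyte markers, -0.09 and -0.18 for oligodendrocyte markers, 0.34 and 0.15 for meningeal markers and 0.07 and -0.02 for choroid plexus markers. Granule genes were abundant in the brain, with 3682 to 4209 RPM summed over 8 genes against 1596 and 886 RPM in the ventricle.

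The remaining marker lists of the ventricle gave mixed values, beside 10.5% of all measured genes higher and 1.54% lower. Endothelial markers, of which 11 were measured, had a median of 0.18 and 1 higher gene, Vwf (1.18), while Cdh5 was at -0.31. Of 7 smooth muscle and pericyte markers 4 were higher and 1 was lower, with Tagln at 1.87 and Abcc9 at -1.06. With TMM or DESeq2 scaling 2 of these 7 were higher and 1 was lower. Vwf passed the threshold with TMM, and 0 endothelial markers did so with DESeq2. Both cell types are known to carry Npr1 and Npr3, and their part in the receptor values was not tested. Of the lists for brain cell types, the ventricle had 1 measured neuron marker (0.29), 1 astrocyte marker (-0.58), 2 oligodendrocyte markers (median -0.05), 1 choroid plexus marker (1.31) and 4 meningeal markers (median 2.93), the last including collagen genes of the fibroblast list.

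The neighbours of the 2 hormone genes were looked at because Nppa and Nppb were higher together. Within 50 kb, Clcn6 was at 0.43, Plod1 at 0.38 and 2510039O18Rik at 0.15. These 3 genes were chosen after their values were seen, and none of the 3 passed the threshold.

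No feature of the deposited tables overlapped any of the 8 genes. GENCODE places antisense transcripts over Nppa (Gm13054), Npr1 (Gm16048), Npr2 (Gm12473), Corin (Gm20647) and Furin (Gm44851), and within Corin also 2 snRNA genes (Gm25768 and Gm23712), a pseudogene (Gm19560) and a lincRNA gene (AU023070). The libraries were stranded, but the sources used here do not say whether reads were counted by strand, so reads of such a pair cannot be told apart.

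The features whose levels over the 6 libraries ran most like those of each gene were found by Pearson's r of log2(CPM + 1) among 13106 features. These correlations are a description over 6 libraries that mainly separate heart from brain. For Nppa they were Arrdc3, H6pd and Gp49a (r from 0.9997 to 0.9998), and for Nppb Csgalnact2, Ecscr and Heyl. Nppc ran with Shh (r = 0.999), Mrap2 and Vwa5b1, which all had 0 reads in the ventricle. Npr1 was closest to Acsf2 (r = 0.998) and Arrdc4, Npr2 to Vsig10l (r = 0.990), Exosc8 and 3110052M02Rik, and Npr3 to Ebag9, Mum1l1 and Atp13a3. Corin ran with Efcab2, Acadl, an enzyme of fatty acid oxidation, and Ppp1r3a, a glycogen regulator of striated muscle. Furin ran with Abca1, Scin and Slco3a1.

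The scaling of the ventricle libraries mattered for genes near 0 or near the threshold. TMM factors shifted the median of all measured genes by -0.28 and DESeq2 size factors by -0.29. The share of higher genes among all those past the threshold was 87.3% by RPKM, 62.9% with TMM and 60.4% with DESeq2. Nppa stayed at 3.63 to 3.92 and Nppb at 1.53 to 1.82 under each of these and with totals that left out the 10 largest features. Npr1 ranged from 0.17 to 0.46 and Npr3 from 0.39 to 0.68, and both stayed above 0.

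**Figure D5:**
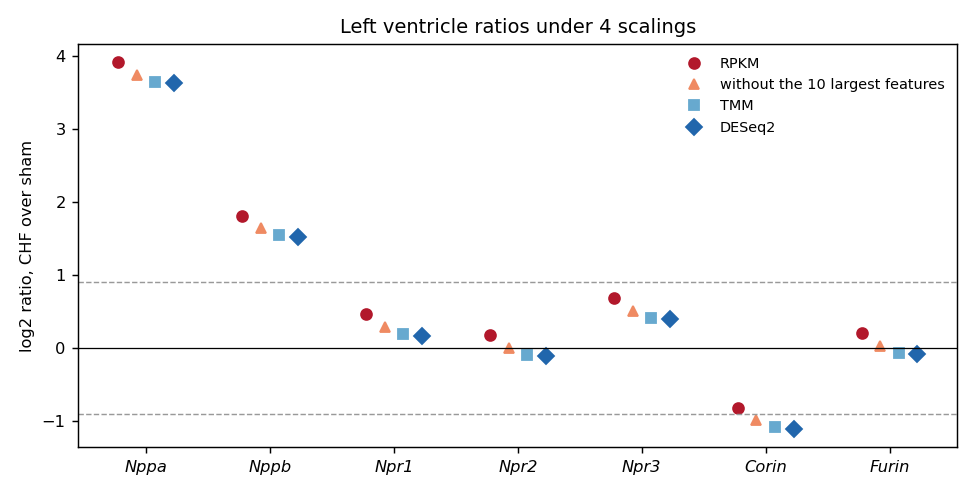
Log2 ratio, CHF over sham, of the 7 measured genes in the left ventricle under 4 scalings (deposited RPKM, unique reads with totals without the 10 largest features, TMM factors and DESeq2 size factors), with dashed lines at -0.9 and 0.9. Nppa and Nppb stay above the upper line in all 4, Corin passes the lower line in all but the RPKM values, and Npr2 and Furin fall on either side of 0.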

How the data were processed

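The authors removed ribosomal RNA, made stranded libraries (TruSeq Stranded Total RNA), sequenced single reads of 50 bases and used CLC Genomics Workbench with the genome GRCm38.p1 for mapping. The counts deposited by the authors are unique, total and exon reads per gene. The RPKM deposited by the authors divides exon reads by listed length and total gene reads, and recomputing it gave the same value in all 35485 features (tolerance 1e-06). Log2 columns of the authors' own comparisons were not used.

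Ratios used RPKM, and intervals were exact Clopper-Pearson intervals of unique reads, centred with total gene reads (Woolf intervals on the log scale for changes of a ratio within a library, Poisson intervals for levels). Scripts were tested on simulated data. Python 3.11.15, scipy 1.17.1, edgeR 4.0.16 (TMM) and DESeq2 1.42.0 (size factors) were used.

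The 8 genes and the 20 lists were chosen with earlier results of these data known. Named were all 8 genes, up to 4 measured genes per list with the largest ventricle ratios and its gene with the highest RPKM, features overlapping the 8, and the 3 features most alike to each. A few further genes are named because of their values or as context. Some features that this rule or context would name are not reported here. Alternatives were other scalings, read minimums, thresholds, a pseudocount of 0.01 RPKM and exon lengths.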

Additional observations from a re-analysis of the deposited data

Results flagged for a closer look

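All 3 receptor genes had ratios whose counting intervals lay on opposite sides of 0 in different tissues. Npr1 had a log2 ratio, CHF over sham, of 0.46 in the left ventricle and 0.35 in the hippocampus, against -0.75 in the prefrontal cortex. That last value rests on 68 and 138 reads, below the read minimum. For Npr2 the values were 0.17 in the left ventricle and -0.14 in the prefrontal cortex, the former at -0.10 with TMM scaling. Npr3 was at 0.68 in the left ventricle and -0.50 in the hippocampus, the latter on 96 and 121 reads and also below the read minimum. With 1 pooled library per group, the difference between tissues was not tested, and the intervals leave out the spread between mice.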

How the results depend on the processing

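No paired analysis was possible because each group has 1 library, and for the same reason no library could be left out. In the left ventricle, the count of lower genes among the 8 went from 0 to 1 (Corin) with TMM, DESeq2, totals without the 10 largest features and a threshold of 0.8. With a minimum of 1 read, 1 of the 8 was lower in the hippocampus and 1 higher in the prefrontal cortex, in both cases Corin, on 2 and 5 and on 7 and 4 reads. Under the alternatives, 66 values of these counts stayed the same and 6 moved, and no ratio of the 8 genes past the threshold changed sign.

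Over all measured genes, the ventricle had 1027 higher and 150 lower, with TMM 642 and 379, and with DESeq2 617 and 404. Higher genes were 3372 at a minimum of 1 read, 661 at 200 and 1890 at 100 in either library. Lower genes were 647 at 1 read and 265 without the 10 largest features. The hippocampus had 6 higher genes, 3 with TMM and 3 with DESeq2, 538 at 1 read, 10 at 50, 1 at 200, 12 in either library and 10 at a threshold of 0.8. Its 15 lower genes became 488, 26, 5 and 25 under the same minimums and 31 and 9 at thresholds of 0.8 and 1.0. The prefrontal cortex had 1 higher gene, with 422, 2 and 0 at minimums of 1, 50 and 200 reads and 2 and 0 at thresholds of 0.8 and 1.0. Its 5 lower genes became 443 at 1 read, 8 in either library and 0 at a threshold of 1.0. The cause of the moves with scaling was not tested, and those with minimum or threshold follow from the genes admitted. Depth limits Nppa, Nppb and Corin in the brain and Nppc in the ventricle, with 0 to 14 reads per library.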
